A study of Mus musculus with 12 samples.

Results

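A list of 45 genes of the cell cycle and of DNA replication was followed in myeloid cells sorted from mouse epidermis. The genes were chosen by symbol from knowledge of their function, and all 45 have an entry among the 23420 symbols of the expression table, although the list was drawn up with earlier results of these data known. A total of 44 genes were above 0 in at least 1 of the 12 libraries, and 42 were above 0 in at least 3 libraries and entered the tests, as did 10023 genes in all. The cells were sorted as CD45+CD3-CD11b+MHCII+, a surface phenotype of Langerhans cells and related myeloid cells, and each tube held 100 cells. Mice lacking Cbfβ2, made by alternative splicing of the Cbfb gene, whose product partners the Runx transcription factors, were compared with wild-type mice at 1.5 months after birth (1.5M) and at day 5 after birth (P5). The groups were 1.5M KO, 1.5M wt, P5 KO and P5 wt, with 3 libraries each. The labels give neither the strain nor the construction of the knockout allele, and they call the 3 libraries of a group independent preparations without saying whether they came from separate animals, so p-values measure the spread between these preparations, which may be technical.

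The cell cycle runs through a G1 phase, in which D cyclins activate Cdk4 and Cdk6 and release E2F factors, an S phase, in which licensed origins fire and DNA is copied, and mitosis, which is driven by Cdk1 with cyclin B and ends with the destruction of cyclins by the anaphase-promoting complex. The Mcm proteins form the ring-shaped helicase that is loaded on origins before S phase, and the transcription of their genes is E2F-dependent, while many mitotic genes are repressed in resting cells through the cell cycle homology region (CHR) of their promoters. Langerhans cells are known to be seeded into the epidermis before birth, to proliferate there in the first days after birth and to maintain themselves afterwards by slow division.

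RefSeq promoter windows (GRCm38.p6, 250 bases before to 50 bases after the transcription start) were found for 35 of the 45 genes, 38 windows in all. An E2F word (TTTCGCGC, TTTGGCGC, TTTCCCGC or TTTGCCGC, both strands) stood in 8 of the 38 windows, or 21.1%, beside 2.26% of all 32851 windows of the same length. These were the windows of Mcm3, Mcm5, Mcm6, Mcm7, Cdc6, Cdt1, Uhrf1 and Cdk1. The CHR word TTTGAA (both strands) stood in 15 windows, or 39.5%, beside 17.9% of all windows, and the word CCAAT (both strands) in 29 windows, or 76.3%, beside 37.4%. The windows of 3 genes that passed a threshold below are given 5′ to 3′ on the strand of the gene, which is the minus strand for all 3, to show these words where they lie. Capitals mark the E2F words of Mcm6, 2 of which overlap on opposite strands and the other of which lies nearer the start, and the CHR word of Mcm2 and of Cdc20. A match describes the letters of the window and is no evidence of binding.
Mcm2, chr6:88898731-88899030: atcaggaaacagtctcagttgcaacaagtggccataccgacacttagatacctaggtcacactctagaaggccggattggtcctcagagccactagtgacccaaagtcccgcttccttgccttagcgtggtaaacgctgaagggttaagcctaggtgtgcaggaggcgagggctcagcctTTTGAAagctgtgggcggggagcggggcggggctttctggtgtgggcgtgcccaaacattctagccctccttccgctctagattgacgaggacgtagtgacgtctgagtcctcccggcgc
Mcm6, chr1:128359656-128359955: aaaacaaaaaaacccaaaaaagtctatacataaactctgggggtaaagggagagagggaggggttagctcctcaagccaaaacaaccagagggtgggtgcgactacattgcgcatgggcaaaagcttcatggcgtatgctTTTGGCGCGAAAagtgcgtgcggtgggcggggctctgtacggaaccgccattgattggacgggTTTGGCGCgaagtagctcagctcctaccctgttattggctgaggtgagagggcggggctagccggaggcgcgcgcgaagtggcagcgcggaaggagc
Cdc20, chr4:118437294-118437593: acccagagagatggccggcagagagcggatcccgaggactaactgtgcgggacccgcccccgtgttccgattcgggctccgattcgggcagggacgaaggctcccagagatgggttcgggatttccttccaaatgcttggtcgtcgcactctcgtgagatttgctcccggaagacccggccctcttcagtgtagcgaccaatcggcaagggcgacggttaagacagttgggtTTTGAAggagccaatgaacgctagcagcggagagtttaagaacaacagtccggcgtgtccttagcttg

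Each library's molecule counts were brought to a common total by the authors, and a level is given below as a scaled count. A single molecule was worth 0.48 to 0.50 scaled counts in 1.5M KO libraries and 0.72 to 0.92 in 1.5M wt. At P5 it was worth 0.73 to 1.2 in KO and 0.71 to 1.08 in wt. The range follows from the depth, as the 1.5M KO libraries were the deepest, with 74620 to 77419 molecules against 40254 to 51848 in 1.5M wt. The depth was 30913 to 51001 molecules in P5 KO and 34192 to 52208 in P5 wt. Most of the 45 genes were thus seen as a few molecules per library. All 5 leukocyte markers of the gate were above 0 in all 12 libraries. Cbfb, the targeted gene, averaged 1.77 ± 0.71 scaled counts in 1.5M KO and 10.5 ± 3.34 in 1.5M wt, and 2.5 ± 1.09 in P5 KO and 4.41 ± 0.54 in P5 wt (SD, n = 3), although its 3′ end does not tell its splice forms apart. The sorted cells differed in identity at 1.5M: 5 Langerhans cell markers ranged in sum over 28.8 to 41.7 in 1.5M KO, where 4 to 5 were above 0, against 324 to 406 in 1.5M wt, where all 5 were. The 10 macrophage and monocyte markers ranged in sum over 458 to 549 in 1.5M KO, where 8 were above 0, against 69.4 to 91.1 in 1.5M wt, where 5 to 6 were, and the part of this difference in the cell cycle values was not tested. At P5 the Langerhans cell markers differed in the same direction, ranging in sum over 8.91 to 15.0 in KO, where 3 to 4 were above 0, against 58.6 to 72.3 in wt, where all 5 were. Cd207, the Langerhans cell lectin, was at 0 in all 3 P5 KO libraries and at 0.71, 1.08 and 2.93 in P5 wt. The macrophage and monocyte markers ranged in sum over 171 to 185 in P5 KO, where 8 to 9 were above 0, against 134 to 169 in P5 wt, where 6 to 8 were.

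The P5 KO libraries differed among themselves. The 45 genes summed to 114, 112 and 54.8 scaled counts in P5 KO libraries 1, 2 and 3, with 36, 39 and 21 genes above 0. The summed erythroid markers were at 405, 524 and 2.39 in the same order, against 0 to 4.26 in P5 wt, and 7, 6 and 4 of the 10 markers in the table were above 0, against 0 to 3 in P5 wt. The keratinocyte markers summed to 703, 230 and 259 against 70.3 to 100 in P5 wt, with 13 to 15 of 19 above 0 in P5 KO and 14 to 15 in P5 wt, and the neutrophil markers to 89.0, 51.9 and 246 against 7.95 to 20.0, with 4 to 8 of 10 above 0 in P5 KO and 2 to 3 in P5 wt. P5 KO library 3 thus had the lowest sum of cell cycle genes of the P5 libraries, few erythroid molecules and the highest neutrophil sum. It was also the shallowest of the 12 libraries. The gate should leave out keratinocytes and red cells, which lack CD45, and resting neutrophils, which lack MHCII. The part of these cells and of depth in the cell cycle values was not tested.

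**Figure D1:**
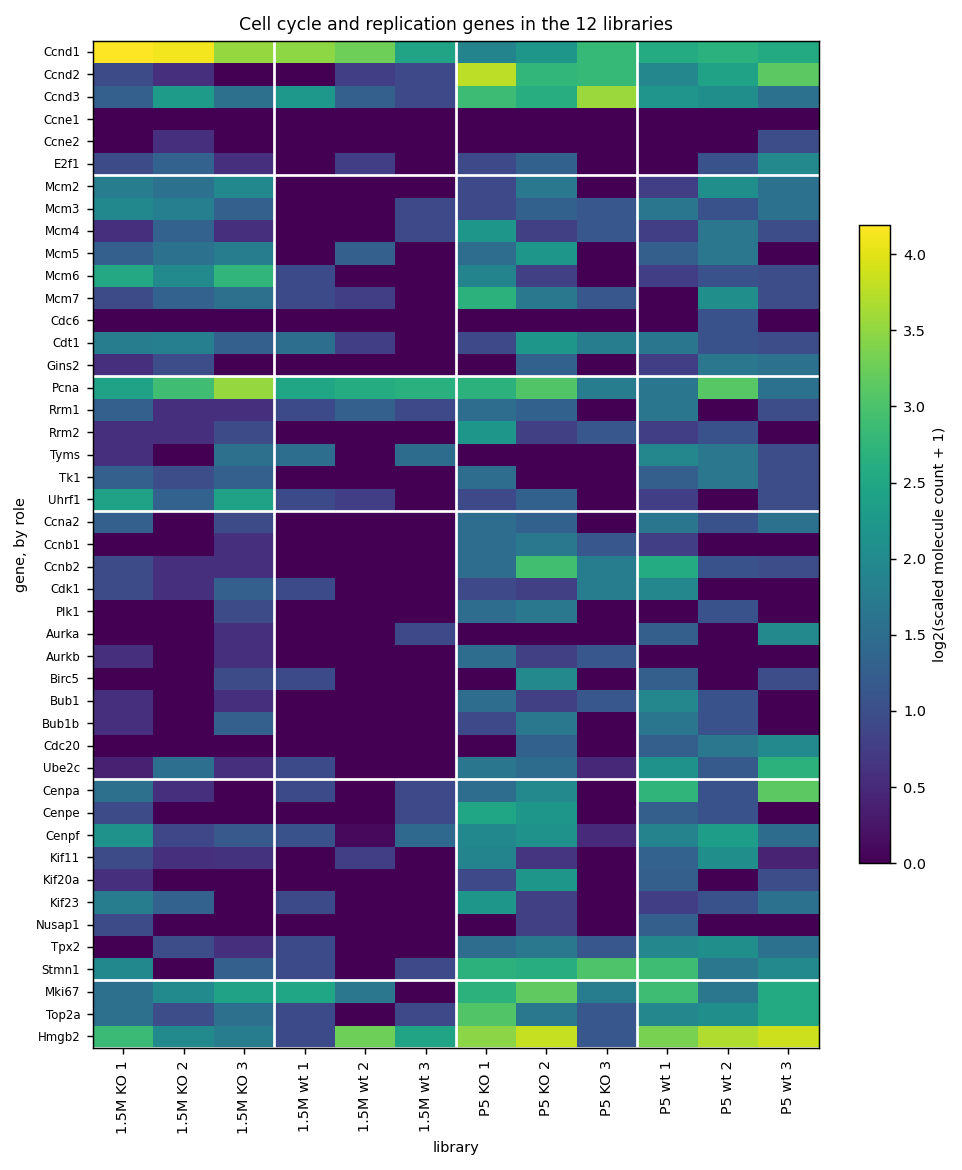
Heat map of the 45 genes (rows, grouped by role from G1 cyclins at the top to chromosome structure at the bottom) in the 12 libraries (columns), coloured by log2(scaled count + 1). The 1.5M wt columns are mostly dark, with 14 to 20 genes above 0, and P5 KO library 3 is darker than the other P5 libraries.

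In 1.5M KO libraries the 45 genes summed to 78.0, 62.9 and 69.8 scaled counts, and in 1.5M wt libraries to 39.8, 33.0 and 26.6. The P5 KO sums are those given above, and the P5 wt sums were 95.7, 86.7 and 90.6. The 1.5M wt libraries had the 3 lowest sums of the 12, and they did not overlap with 1.5M KO or with P5 wt. In these bulk tubes, fewer dividing cells and less of each RNA per cell cannot be told apart. The number of genes above 0 was 29 to 36 for 1.5M KO, 14 to 20 for 1.5M wt and 33 to 38 for P5 wt. After every library was thinned to 30797 molecules, 17 to 24 genes were above 0 in 1.5M KO and 11 to 17 in 1.5M wt. At P5, 19 to 34 were above 0 in KO and 29 to 34 in wt. The thinned sums averaged 61.8 ± 6.95 in 1.5M KO and 31.7 ± 7.36 in 1.5M wt. In the P5 libraries they averaged 99.6 ± 39.3 in KO and 91.1 ± 6.63 in wt. Genes at 0 in all 3 libraries of a group numbered 3 of the 45 for 1.5M KO and 17 for 1.5M wt. For P5 KO the number was 5 and for P5 wt 2. Over all genes tested, 6.65% were at 0 in all 3 libraries of 1.5M KO and 16.9% in those of 1.5M wt. At P5 the shares were 8.31% for KO and 7.85% for wt. These shares cover tested genes only, whereas the counts of the 45 include Ccne1, Ccne2 and Cdc6, which were too rarely seen to be tested. All 3 were at 0 throughout 1.5M wt and P5 KO. Ccne1 and Cdc6 were also at 0 throughout 1.5M KO, and Ccne1 throughout P5 wt.

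Genes were tested one by one with limma on log2(scaled count + 1), in a model over all 12 libraries and with Benjamini-Hochberg adjustment over all 10023 genes. At 1.5M, Mcm2 and Mcm6 passed an adjusted p of 0.05 as higher in KO than in wt, and no gene of the 42 as lower. Over all genes, 3.24% were called higher and 2.04% lower, so that 2 of 42, or 4.76%, was close to the background. By voom, 4 genes were higher and 0 lower, against 4.69% and 3.95% of all genes. At an unadjusted p under 0.05, limma gave 6 higher and 0 lower, against 9.44% and 5.45%. The KO and wt libraries did not overlap for 11 genes, or 26.2%, all higher in 1.5M KO, against 13.9% of all genes higher and 7.18% lower without overlap. Of these 11 genes, 5 were of the 8 tested for origin licensing and 3 of the 6 for DNA synthesis, whereas the 12 mitotic cyclins, kinases and regulators gave 1 and the 9 kinetochore and spindle genes 0.

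At P5, limma called 0 of the 42 genes between KO and wt, against 1.15% of all genes higher and 0.649% lower, and voom called 0, against 0.898% and 0.479%. At an unadjusted p under 0.05, 3 genes were higher in P5 KO and 3 lower (limma), against 6.62% and 6.13% of all genes. Without overlap, Ccnb1, Aurkb and Ccnd3 were higher and Tyms was lower in P5 KO, against 6.23% and 6.02%. These shares were near the background. Aurkb reached the filter of 3 libraries above 0 only with the libraries of P5 KO, which favoured its lack of overlap.

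With age in wild type, Cdc20 and Ccnd2 were lower in 1.5M wt than in P5 wt, and no gene of the 42 was higher (limma). Cdc20 reached the filter of 3 libraries above 0 only with the libraries of P5 wt, so that the filter favoured its call. Over all genes, 2.84% were called lower and 2.36% higher. By voom, 10 genes were lower and 0 higher, against 3.92% and 2.43%. At an unadjusted p under 0.05, limma gave 15 lower and 0 higher, against 12.1% and 6.11%. The libraries did not overlap for 15 genes, or 35.7%, all lower in 1.5M wt, against 13.2% of all genes lower and 6.06% higher. They came from every role: 4 mitotic regulators, 4 kinetochore and spindle genes, 3 licensing genes, 2 chromosome genes, 1 gene of DNA synthesis and 1 D cyclin. The marker sums of keratinocytes and fibroblasts were also lower in 1.5M wt than in P5 wt. The keratinocyte markers summed to 11.8 to 51.6 in 1.5M wt, with 7 to 11 of 19 above 0, against 70.3 to 100 in P5 wt. The 5 fibroblast markers were at 0 throughout 1.5M wt and summed to 0.98 to 9.76 in P5 wt. The part of these cells in the difference with age was not tested.

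With age in knockout, Ccnd1 was higher and Ccnd2 lower in 1.5M KO than in P5 KO (limma), against 1.72% of all genes called higher and 1.43% lower. By voom, 1 gene was higher and 6 were lower, against 2.52% and 6.45%. At an unadjusted p under 0.05, limma gave 3 higher and 7 lower, against 6.42% and 7.81%. Without overlap, 3 genes were higher and 8 lower, against 8.15% and 10% of all genes. The keratinocyte markers summed to 11.98 to 23.98 in 1.5M KO, with 10 to 12 of 19 above 0, against 230 to 703 in P5 KO. The erythroid markers summed to 0 to 0.50 in 1.5M KO and the neutrophil markers to 4.53 to 6.45, both below the P5 KO values given above. The fibroblast markers were at 0 throughout 1.5M KO and summed to 3.6 to 7.27 in P5 KO. The part of these cells was not tested here either.

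The knockout effect at 1.5M minus that at P5 passed the threshold for 0 of the 42 genes in limma, against 1.32% of all genes higher and 0.678% lower. By voom, Mcm2 and Tk1 were higher and no gene was lower, against 1.88% and 1.6%. At an unadjusted p under 0.05, limma gave 7 higher and 0 lower, against 8.4% and 4.89%.

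Over all 45 genes, the median log2 fold change was 0.46 for 1.5M KO against 1.5M wt, beside 0.09 over all genes tested, and -0.04 for P5 KO against P5 wt, beside -0.01. It was -0.75 for 1.5M wt against P5 wt, beside -0.22, and -0.22 for 1.5M KO against P5 KO, beside -0.06. After thinning to equal depth, the median for 1.5M KO against 1.5M wt was 0.21, beside 0 over all genes tested. Under median-of-ratios scaling the median of all genes for 1.5M wt against P5 wt was -0.11, and under quantile normalization -0.06. Among all called genes the share that was higher was then 61.1% and 55.1%, against 45.4% with the deposited scaling. Because 1 is added before the logarithm, log2 fold changes of genes at a few molecules come out smaller than their ratios. With a group at 0 set to the 3 molecules that it could still have held, and genes at or under that floor in both groups left out, the median log2 ratio of group means was 0.94 over 32 genes at 1.5M, beside 0.08 over all genes treated in the same way, 0.15 over 40 genes at P5, beside -0.03, -1.39 over 33 genes with age in wild type, beside -0.39, and -0.72 over 39 genes with age in knockout, beside -0.17. The P5 medians differ in sign between both ways of counting. Without P5 KO library 3, the median log2 fold change was 0.21 for P5 KO against P5 wt and -0.65 for 1.5M KO against P5 KO, and with library 3 as the sole P5 KO library these medians were -0.73 and 0.32.

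**Figure D2:**
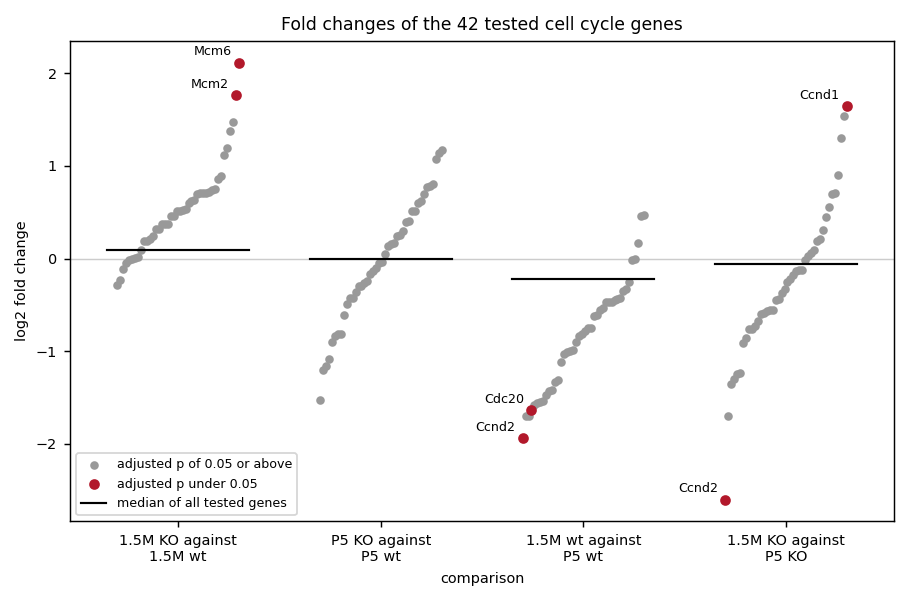
Log2 fold change of the 42 tested genes (vertical axis) in 4 comparisons (horizontal axis), each point a gene, with red points past an adjusted p of 0.05 and black bars at the median of all genes tested. Mcm2 and Mcm6 stand at the top for 1.5M KO against 1.5M wt, and Ccnd2 at the bottom of both comparisons with age.

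Among the genes that license origins and form the replicative helicase, the 6 Mcm genes summed to 12.9, 12.4 and 14.9 scaled counts in 1.5M KO, or 83 molecules in all, and to 1.84, 2.15 and 1.78 in 1.5M wt, or 7 molecules. They summed to 15.4, 10.9 and 3.6 in P5 KO and to 5.68, 13.0 and 6.84 in P5 wt. The 1.5M KO and 1.5M wt libraries were far apart, whereas the P5 KO and P5 wt libraries overlapped. The mean sums were 13.4 ± 1.28 in 1.5M KO and 1.92 ± 0.20 in 1.5M wt, and 9.98 ± 5.97 in P5 KO and 8.51 ± 3.94 in P5 wt (SD, n = 3). Thinned to equal depth, they were 11.2 ± 1.39 in 1.5M KO and 1.61 ± 0.70 in 1.5M wt.

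Mcm2, a subunit of the helicase (mm10, chromosome 6, 88883474 to 88898780, minus strand), was at 2.40, 1.99 and 2.87 scaled counts in 1.5M KO and at 0 in all 3 libraries of 1.5M wt. Values in P5 KO were 0.91, 2.18 and 0, and in P5 wt 0.71, 3.25 and 1.95. The 1.5M KO and 1.5M wt libraries did not overlap, and those of P5 KO and P5 wt did. Mcm2 was at least 2.91-fold higher in 1.5M KO than in 1.5M wt, taking the floor of 3 molecules over the wt group, and the fitted log2 fold change was 1.77 ± 0.51 (SE, limma adjusted p = 0.0462). Its knockout effect at 1.5M exceeded that at P5 by 2.37 ± 0.73 on the log2 scale, which did not pass (limma adjusted p = 0.104). The 1.5M call was lost without any of the 6 libraries of 1.5M KO and 1.5M wt (adjusted p of 0.114 to 0.176) and after thinning to equal depth (adjusted p = 0.107), as well as under 5 of the other alternatives.

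Mcm6, another subunit of the ring (mm10, chromosome 1, 128331590 to 128359664, minus strand), was at 4.80, 2.98 and 5.75 in 1.5M KO and at 0.92, 0 and 0 in 1.5M wt. P5 KO had 2.72, 0.73 and 0, and P5 wt had 0.71, 1.08 and 0.98. All 1.5M KO libraries were above every other library. The log2 fold change was 2.11 ± 0.52 for 1.5M KO against 1.5M wt (limma adjusted p = 0.0151) and -0.04 ± 0.52 for P5 KO against P5 wt. With age in knockout it was 1.53 ± 0.52 (adjusted p = 0.133), and the difference between the knockout effects was 2.16 ± 0.74 (adjusted p = 0.158), neither of which passed in limma. The 1.5M call was lost without 1.5M KO library 1 or 3, without 1.5M wt library 2 or 3 (adjusted p of 0.0698 to 0.101), at a pseudocount of 0.1 (0.0642) and after thinning (0.143).

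The other Mcm genes did not pass a threshold. Mcm3, Mcm5 and Mcm7 averaged 2.27 ± 0.74, 1.94 ± 0.48 and 1.46 ± 0.48 in 1.5M KO, and 0.30 ± 0.51, 0.48 ± 0.83 and 0.55 ± 0.48 in 1.5M wt, and the libraries of both groups did not overlap for any of the 3. Mcm4 averaged 0.82 ± 0.58 in 1.5M KO and 0.30 ± 0.51 in 1.5M wt, with overlap. Cdt1, which loads the helicase, averaged 2.11 ± 0.58 in 1.5M KO and 0.85 ± 0.93 in 1.5M wt, and Gins2, of the GINS complex that activates it, was at 0.48, 0.99 and 0 in 1.5M KO and at 0 throughout 1.5M wt. At P5 the KO libraries held 0, 1.45 and 0 and the wt libraries 0.71, 2.17 and 1.95. Cdc6, the loader that works with Cdt1, was seen as 1 molecule, in a P5 wt library, and was not tested.

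**Figure D3:**
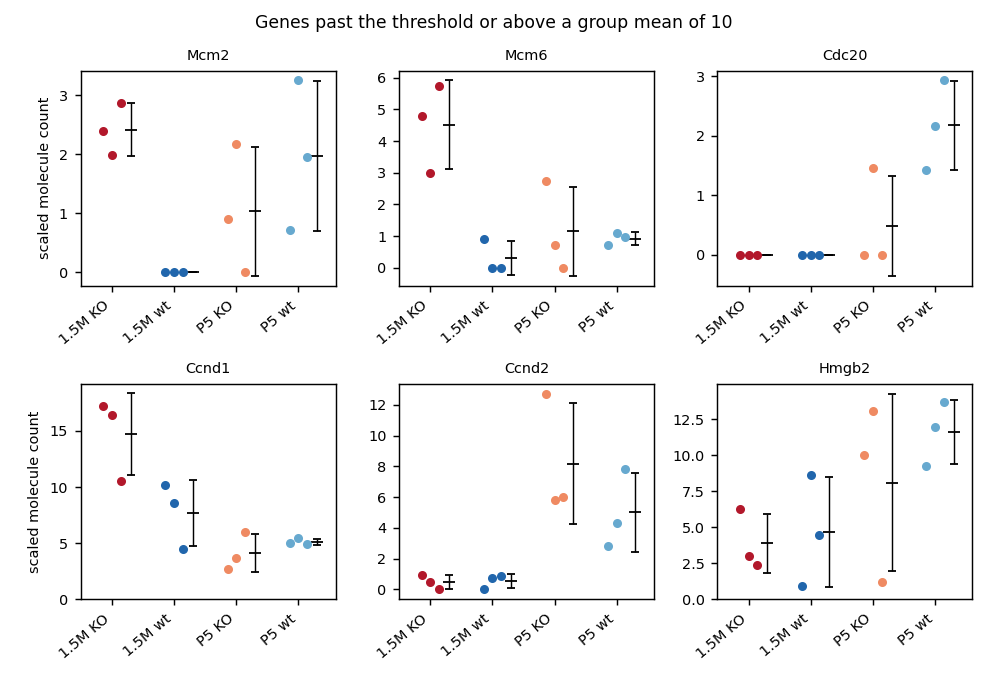
Scaled molecule count (vertical axis) of 6 genes in each library of the 4 groups (coloured points), with the group mean and SD (black, n = 3). Mcm2 and Mcm6 are higher in 1.5M KO than in 1.5M wt, Cdc20 has molecules in P5 libraries alone, and Ccnd1 and Ccnd2 run in opposite directions with age in knockout.

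Of the genes of DNA synthesis, nucleotide supply and methylation maintenance, 0 of 6 passed in any comparison (limma), and at an unadjusted p under 0.05 Tk1 and Uhrf1 were higher in 1.5M KO than in 1.5M wt. Tk1, thymidine kinase, was at 1.44, 0.99 and 1.44 scaled counts in 1.5M KO and at 0 throughout 1.5M wt. The P5 values were 1.82, 0 and 0 in KO and 1.42, 2.17 and 0.98 in wt. It was at least 1.55-fold higher in 1.5M KO than in 1.5M wt, without overlap (limma adjusted p = 0.198). Uhrf1, which brings Dnmt1 to newly copied DNA, was at 4.32, 1.49 and 4.31 in 1.5M KO and at 0.92, 0.72 and 0 in 1.5M wt. Its P5 values were 0.91, 1.45 and 0 in KO and 0.71, 0 and 0.98 in wt. The 1.5M KO libraries were the 3 highest of the 12 for Uhrf1 (log2 fold change of 1.47 ± 0.52 against 1.5M wt, limma adjusted p = 0.131). Pcna, the sliding clamp of the polymerases, averaged 7.11 ± 3.16 in 1.5M KO and 4.98 ± 0.36 in 1.5M wt. Its P5 means were 5.04 ± 2.46 in KO and 3.89 ± 3.21 in wt, with overlap between the genotypes at both ages. Rrm2, the small subunit of ribonucleotide reductase, was above 0 in all 3 libraries of 1.5M KO and at 0 throughout 1.5M wt, whereas Rrm1, its large subunit, averaged 0.81 ± 0.55 in 1.5M KO and 1.08 ± 0.30 in 1.5M wt. Tyms, thymidylate synthase, was at 0 throughout P5 KO and at 2.84, 2.17 and 0.98 in P5 wt, and did not pass (limma adjusted p = 0.176).

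The 3 D cyclins, which link growth signals to Cdk4 and Cdk6, went different ways. Ccnd1 (mm10, chromosome 7, 144929931 to 144939925) was at 17.3, 16.4 and 10.5 scaled counts in 1.5M KO and at 10.1, 8.58 and 4.44 in 1.5M wt. Values in P5 KO were 2.72, 3.64 and 6.0, and in P5 wt 4.97, 5.42 and 4.88. The 1.5M KO libraries were the 3 highest of the 12, and did not overlap with 1.5M wt or P5 KO. The log2 fold change was 1.64 ± 0.35 for 1.5M KO against P5 KO (limma adjusted p = 0.00892), and 0.89 ± 0.35 for 1.5M KO against 1.5M wt, which did not pass (adjusted p = 0.192). The call with age in knockout was lost without 1.5M KO library 1 or 2 (adjusted p = 0.0689 and 0.0713) or P5 KO library 1 (0.0511) and after thinning (0.069), and it held without P5 KO library 3 (0.00564). With library 3 as the sole P5 KO library the log2 fold change was 1.14 ± 0.44 (0.254), where the spread of the lone library is assumed to be that of the other groups.

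Ccnd2 (mm10, chromosome 6, 127125162 to 127152193) was at 0.96, 0.50 and 0 in 1.5M KO and at 0, 0.72 and 0.89 in 1.5M wt. P5 KO had 12.7, 5.82 and 6.0, and P5 wt had 2.84, 4.34 and 7.81. Every P5 library was above every 1.5M library, and the genotypes overlapped at both ages. The log2 fold change was -2.60 ± 0.47 for 1.5M KO against P5 KO (limma adjusted p = 0.0018) and -1.93 ± 0.47 for 1.5M wt against P5 wt (limma adjusted p = 0.0159). The log2 fold change in knockout was -2.76 without P5 KO library 3 (adjusted p = 0.00506). It was -2.29 ± 0.64 with library 3 as the sole P5 KO library (0.1235), a fit of 1 library whose spread is taken from the other groups and whose p therefore says little of library 3. The call in wild type was lost without 1.5M wt library 1 (0.0764) or P5 wt library 3 (0.0915), at a pseudocount of 0.1 (0.0712) and after thinning (0.140).

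Ccnd3 averaged 2.44 ± 1.35 in 1.5M KO and 2.0 ± 1.48 in 1.5M wt. In the P5 libraries it averaged 7.42 ± 3.00 in KO and 2.92 ± 0.85 in wt. The P5 KO libraries were the 3 highest of the 12, and the log2 fold change against P5 wt was 1.07 ± 0.44, which did not pass (limma adjusted p = 0.295). The E cyclins, which act with Cdk2 at the entry to S phase, were almost absent from the counts: Ccne1 was at 0 in all 12 libraries and Ccne2 was seen as 1 molecule in 1.5M KO and 1 in P5 wt. A count of 0 allows up to 3 molecules over a group, which is 0.49 scaled counts for 1.5M KO and 0.83 for 1.5M wt. For P5 it is 0.91 in KO and 0.89 in wt, covering counting error only. E2f1, the factor released by the D cyclins' kinases, averaged 0.98 ± 0.51 in 1.5M KO and 0.24 ± 0.41 in 1.5M wt. Its P5 means were 0.79 ± 0.74 in KO and 1.34 ± 1.48 in wt.

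**Figure D4:**
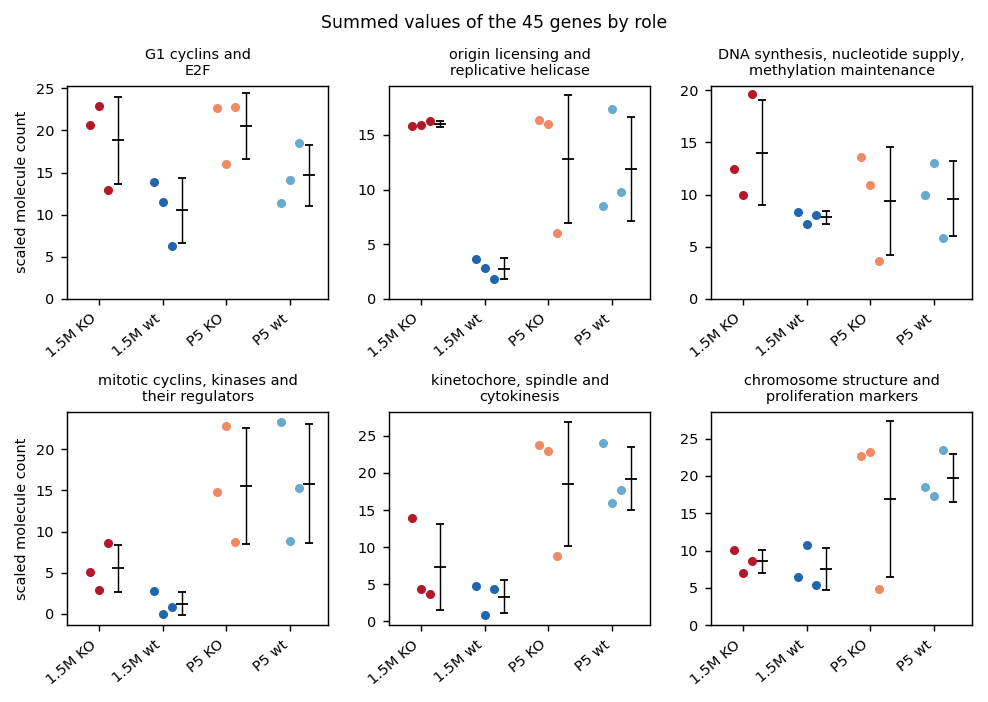
Summed scaled molecule count (vertical axis) of the genes of each role in each library of the 4 groups (coloured points), with the group mean and SD (black, n = 3). Origin licensing and helicase genes separate 1.5M KO from 1.5M wt, and the mitotic roles are lower in 1.5M libraries of both genotypes than in P5 wt.

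The 21 mitotic genes summed to 19.1, 7.24 and 12.3 scaled counts in 1.5M KO and 7.54, 0.79 and 5.26 in 1.5M wt. At P5 the KO libraries held 38.6, 45.8 and 17.6 and the wt libraries 47.4, 24.9 and 33.0. Both genotypes were lower at 1.5M than P5 wt, without overlap, and 1.5M KO overlapped with 1.5M wt and with P5 KO library 3. Against this, the 15 genes of replication summed to 28.3, 25.8 and 35.9 in 1.5M KO and 12, 10.02 and 9.77 in 1.5M wt. The P5 values were 29.97, 26.9 and 9.60 in KO and 18.5, 30.4 and 15.6 in wt. For the genes of replication, the 1.5M KO libraries lay within or above the range of both P5 groups, and no 1.5M KO library overlapped with 1.5M wt. The median log2 fold change with age in knockout was 0.09 over the licensing and helicase genes and 0.57 over the DNA synthesis genes, but -0.40 over the mitotic cyclins, kinases and regulators and -0.44 over the kinetochore and spindle genes. In wild type these medians were -0.63, -0.27, -0.84 and -1.01 in the same order.

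Cdc20, the activator of the anaphase-promoting complex (mm10, chromosome 4, 118432901 to 118437352, minus strand), was at 0 in all 3 libraries of 1.5M KO and of 1.5M wt. Its P5 values were 0, 1.45 and 0 in KO and 1.42, 2.17 and 2.93 in wt. It was at least 2.61-fold lower in 1.5M wt than in P5 wt, and the fitted log2 fold change was -1.64 ± 0.40 (limma adjusted p = 0.0163). Between P5 KO and P5 wt it was -1.21 ± 0.40, with overlap, which did not pass (limma adjusted p = 0.157). The call in wild type was lost without any of the 3 libraries of 1.5M wt (adjusted p of 0.0593 to 0.0613) and after thinning (0.103). Without the P5 wt libraries Cdc20 would not have reached the filter of 3 libraries above 0. It thus entered the tests through the group where it is high, and the call carries little weight.

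The other mitotic genes did not pass a threshold. Of the 12 mitotic cyclins, kinases and regulators, 8 were at 0 in all 3 libraries of 1.5M wt: Ccna2, Ccnb1, Ccnb2, Plk1, Aurkb, Bub1, Bub1b and Cdc20. In 1.5M KO, Cdc20 alone of these 8 was at 0 throughout. Over all genes tested, 16.9% were at 0 in all 3 libraries of 1.5M wt and 6.65% in those of 1.5M KO, which were deeper. After thinning to equal depth, 2 to 5 of the 12 genes were above 0 in 1.5M KO libraries and 0 to 2 in 1.5M wt. Ccnb2, a B cyclin, was at 0.96, 0.50 and 0.48 in 1.5M KO and at 0 throughout 1.5M wt. Values in P5 KO were 1.82, 6.55 and 2.40, and in P5 wt 4.97, 1.08 and 0.98. It did not overlap between 1.5M KO and 1.5M wt, nor between ages in either genotype, and no call passed (limma adjusted p = 0.1003 in wild type and 0.213 in knockout). Aurkb, the kinase of the chromosomal passenger complex, was at 1.82, 0.73 and 1.2 in P5 KO and at 0 throughout P5 wt. Its P5 KO mean was 1.39-fold the floor of 3 molecules over P5 wt (limma adjusted p = 0.0708). Aurkb reached the filter of 3 libraries above 0 only with the libraries of P5 KO, so that the filter favoured it as higher there. Aurka, the spindle pole kinase, was at 0 throughout P5 KO and at 1.42, 0 and 2.93 in P5 wt (limma adjusted p = 0.251). Without P5 KO library 2, Aurkb passed as higher and Cdc20 as lower in P5 KO than in P5 wt. That library was the sole one of P5 KO with Cdc20 and held the lowest Aurkb value of the group. Leaving it out thus favoured both calls, as did the filter, and neither passed with all libraries. Ube2c, the ubiquitin-conjugating enzyme of the anaphase-promoting complex, averaged 0.90 ± 0.88 in 1.5M KO and 0.31 ± 0.53 in 1.5M wt. In the P5 libraries it averaged 1.43 ± 0.91 in KO and 3.41 ± 2.12 in wt, and its value held fractions of a molecule shared with other entries in 8 libraries, as those of Cenpf did in 12 and those of Kif11 in 4.

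Of the 9 genes of the kinetochore, spindle and cytokinesis, 0 passed in any comparison (limma), and 3 were lower in 1.5M wt than in P5 wt at an unadjusted p under 0.05, Cenpa, Tpx2 and Stmn1. Stmn1, a microtubule destabiliser, was at 2.88, 0 and 1.44 in 1.5M KO and at 0.92, 0 and 0.89 in 1.5M wt. P5 KO had 5.45, 5.09 and 7.20, and P5 wt had 6.39, 2.17 and 2.93. The ages did not overlap in either genotype (log2 fold change of -1.70 ± 0.51 in knockout, limma adjusted p = 0.0704, and -1.56 ± 0.51 in wild type, limma adjusted p = 0.0805). P5 KO library 3, low in most mitotic genes, held the highest Stmn1 value of the 12. Cenpa, the histone variant of centromeres, averaged 0.81 ± 0.995 in 1.5M KO and 0.60 ± 0.52 in 1.5M wt. Its P5 means were 1.58 ± 1.47 in KO and 4.86 ± 3.44 in wt.

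Among the proliferation markers, Mki67, which coats mitotic chromosomes, was at 1.92, 2.98 and 4.31 in 1.5M KO and at 4.61, 2.15 and 0 in 1.5M wt. At P5 the KO libraries held 5.45, 8.0 and 2.40 and the wt libraries 6.39, 2.17 and 4.88. All groups overlapped. Top2a, the topoisomerase of replicating and condensing chromosomes, averaged 1.61 ± 0.53 in 1.5M KO and 0.60 ± 0.52 in 1.5M wt. In the P5 libraries it averaged 3.55 ± 3.26 in KO and 3.66 ± 1.08 in wt, and did not pass (limma adjusted p = 0.0701 for 1.5M wt against P5 wt). Hmgb2, a chromatin protein of cycling cells (mm10, chromosome 8, 57511907 to 57515999), was at 6.23, 2.98 and 2.40 in 1.5M KO and at 0.92, 8.58 and 4.44 in 1.5M wt. The P5 values were 9.99, 13.1 and 1.2 in KO and 9.24, 11.9 and 13.7 in wt. The P5 wt libraries were above all 1.5M libraries, and P5 KO library 3 was below every P5 wt library and below the other libraries of its group. The log2 fold change was -1.43 ± 0.57 for 1.5M wt against P5 wt, which did not pass (limma adjusted p = 0.179).

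Other genes of the same pathways were counted from 4 lists. Of 55 further replication genes, 45 were tested and 0 passed in a comparison of 2 groups, with 3 higher and 1 lower at 1.5M, 1 higher and 2 lower at P5, 1 higher and 5 lower with age in wild type and 3 higher and 1 lower with age in knockout at an unadjusted p under 0.05 (limma). The 3 of 45 at 1.5M, or 6.67%, and the 5 of 45 with age in wild type, or 11.1%, were both below the shares over all genes, 9.44% and 12.1%. By voom, 1 was higher at 1.5M and 2 were lower in each comparison with age. Their sums ranged over 43.7 to 51.7 in 1.5M KO, against 26.8 to 28.5 in 1.5M wt. At P5 the sums ranged over 39.0 to 55.6 in KO, against 49.1 to 61.5 in wt, so that 1.5M wt did not overlap with any other group. Of 29 further Cdks, E2F factors, Myc proteins and their partners, 25 were tested and 0 passed in any of the 5 comparisons (limma), with 1 higher and 2 lower at 1.5M, 2 higher and 2 lower at P5, 0 higher and 2 lower with age in wild type, 2 higher and 3 lower with age in knockout and 2 higher and 3 lower for the difference at an unadjusted p under 0.05. By voom, 2 were lower in 1.5M KO than in 1.5M wt, 2 lower in 1.5M KO than in P5 KO and 1 lower for the difference. Over all genes, limma shares at an unadjusted p under 0.05, higher and lower, were 9.44% and 5.45% at 1.5M and 6.62% and 6.13% at P5. They were 6.11% and 12.1% with age in wild type, 6.42% and 7.81% in knockout, and 8.4% and 4.89% for the difference. By voom, 4.69% were higher and 3.95% lower at 1.5M. The lower shares were 3.92% with age in wild type, 6.45% in knockout and 1.6% for the difference.

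Of 78 further mitotic genes, 60 were tested. Their sums overlapped between the genotypes, at 102 to 138 in 1.5M KO, against 107 to 127 in 1.5M wt, and at 115 to 181 in P5 KO, against 142 to 186 in P5 wt. H2afz and Tuba1b, which went opposite ways at 1.5M as given below, held a large share of these sums. Of the 78 genes, 33 to 43 were above 0 in 1.5M KO and 14 to 19 in 1.5M wt. After thinning to equal depth the ranges were 22 to 29 and 9 to 15. The median log2 fold change over the tested genes of the list was 0.34 for 1.5M KO against 1.5M wt, beside 0.09 over all genes tested. With age in wild type, 5 of the 60, or 8.33%, were lower in 1.5M wt than in P5 wt and 1, or 1.67%, was higher, against 2.84% and 2.36% of all genes. The lower ones were Kif20b, a kinesin of cytokinesis, Kif22, a kinesin on chromosome arms, Casc5, a kinetochore scaffold, Ect2, which acts in cytokinesis, and Iqgap3, a scaffold protein of dividing cells. All 5 were at 0 in all 3 libraries of 1.5M wt and above 0 in all 3 of P5 wt, with means of 0.92 to 2.08 in P5 wt (limma adjusted p of 0.0121 to 0.0399). Kif20b was at 0 throughout 1.5M KO and 1.5M wt. At P5 it was at 0, 0.73 and 0 in KO, against 2.84, 2.17 and 0.98 in wt. Ect2 was at 1.44, 0 and 0 in 1.5M KO, at 0 throughout P5 KO, and at 1.42, 1.08 and 1.95 in P5 wt. Iqgap3 was at 0.48, 0 and 0 in 1.5M KO, at 0, 0.73 and 0 in P5 KO and at 1.42, 2.17 and 1.95 in P5 wt. These genes held few molecules outside P5 wt. Kif22 was at 0.48, 0 and 0 in 1.5M KO, at 0 throughout 1.5M wt, at 0.91, 0.73 and 0 in P5 KO and at 2.13, 2.17 and 1.95 in P5 wt, and so was at least 2.51-fold lower in 1.5M wt than in P5 wt. Casc5 was at 0 in every library but those of P5 wt, where each held 1 molecule. It entered the tests through these 3 libraries alone, so that its calls had to show it as highest in P5 wt and carry no weight. They are the one above and one as lower in P5 KO than in P5 wt (limma adjusted p = 0.0445). The call in P5 KO was lost under 19 of the 23 alternatives, among them the tests without a filter (0.0549). Kif20b, Ect2 and Iqgap3 also reached the filter of 3 libraries above 0 only with the libraries of P5 wt. The filter thus favoured their calls as lower with age, and with them the share of 8.33%, and these calls carry little weight. Of the 5 genes, only Kif22 would have entered the tests without P5 wt. The Kif22 call was lost after thinning to equal depth (limma adjusted p = 0.306) and at a pseudocount of 0.1 (0.0526). It was also lost in the fit to only the 6 libraries compared (0.0614). The Ect2 call was lost after thinning too (0.217). The calls in wild type of Casc5, Ect2, Iqgap3 and Kif22 were lost without any single library of 1.5M wt (adjusted p of 0.057 to 0.113), and that of Ect2 also without P5 wt library 1 (0.0667) or 3 (0.0868) and under 16 of 23 alternatives in all. Kif20b passed under 22 of 23 alternatives, and was lost in the fit to only the 6 libraries compared (limma adjusted p = 0.117). Dlgap5, a spindle assembly protein, was lower in 1.5M KO, at 0.96, 0.84 and 0.36, than in P5 KO, at 4.44, 3.72 and 6.94 (log2 fold change of -1.79 ± 0.44, limma adjusted p = 0.0226), although its values held shared molecules in 11 libraries and the call was lost without any single library of 1.5M KO (adjusted p of 0.0604 to 0.114) and without P5 KO library 1 (0.0575) or 3 (0.0908) and after thinning (0.105). It was at 2.07, 1.67 and 0.44 in 1.5M wt and at 3.21, 5.92 and 3.55 in P5 wt.

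At 1.5M, 1 of these 60 genes was higher in KO, Tuba1b, an alpha-tubulin, and 2 were lower, Lmnb1, a lamin, and H2afz, the histone H2A.Z, or 1.67% and 3.33%, against 3.24% and 2.04% of all genes. Tuba1b was at 26.9, 31.1 and 39.0 in 1.5M KO and 18.4, 15.9 and 13.2 in 1.5M wt (log2 fold change of 0.98 ± 0.23, limma adjusted p = 0.00949), and at 32.5, 27.9 and 21.6 in P5 KO and 26.5, 27.1 and 24.7 in P5 wt. Lmnb1 was at 1.92, 1.99 and 3.83 in 1.5M KO and 7.37, 10.02 and 17.8 in 1.5M wt (-1.79 ± 0.41, limma adjusted p = 0.00855), and at 1.82, 5.09 and 2.40 in P5 KO and 2.84, 2.17 and 1.95 in P5 wt, so that it was also higher in 1.5M wt than in P5 wt (1.86 ± 0.41, limma adjusted p = 0.00739). H2afz was at 31.6, 20.9 and 34.98 in 1.5M KO and 63.6, 47.9 and 54.2 in 1.5M wt (-0.92 ± 0.21, limma adjusted p = 0.00897), and at 32.7, 44.4 and 34.8 in P5 KO and 39.8, 38.0 and 47.9 in P5 wt. The 1.5M KO and 1.5M wt libraries did not overlap for any of these 3 genes. The Tuba1b call was lost without 1.5M KO library 3 (adjusted p = 0.0815) or 1.5M wt library 3 (0.0588), and its values held shared molecules in 8 libraries. The H2afz call was lost without 1.5M KO library 2 (0.0948) or 1.5M wt library 1 (0.0616). The Lmnb1 call at 1.5M was lost without 1.5M KO library 1 (0.0541) or 2 (0.0586) or 1.5M wt library 3 (0.0839), and that with age without 1.5M wt library 3 (0.0654). After thinning to equal depth the calls of Lmnb1 (0.113 at 1.5M and 0.212 with age) and H2afz (0.141) were lost. In the fits to only the 6 libraries compared they were lost too. The limma adjusted p was 0.0537 at 1.5M and 0.0614 with age for Lmnb1 and 0.0812 for H2afz.

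Of 26 Cdk inhibitors, pocket proteins and antiproliferative genes, 24 were tested. At 1.5M, 2 of the 24, or 8.33%, were lower in KO than in wt, Btg1 and Btg2, and 1, or 4.17%, was higher, Cdkn2c, against 2.04% and 3.24% of all genes. With age in wild type, Btg1, Btg2, Cdkn1a and Gadd45b were called higher in 1.5M wt and Sesn1 lower, against 2.36% and 2.84% of all genes. At P5, Btg1 and Gadd45b were called higher in KO and Tob2 lower, against 1.15% and 0.649%. With age in knockout, Tob2 was called higher in 1.5M KO and Btg1 lower, against 1.72% and 1.43%. Btg2, an antiproliferative gene induced by p53, was at 8.15, 9.44 and 12.5 scaled counts in 1.5M KO and at 42.4, 61.5 and 56.0 in 1.5M wt. Its P5 values were 14.5, 11.6 and 4.80 in KO and 15.6, 5.42 and 19.5 in wt. The 1.5M wt libraries were apart from the other 9, with a log2 fold change of -2.30 ± 0.38 for 1.5M KO against 1.5M wt (limma adjusted p = 0.000293) and of 2.05 ± 0.38 for 1.5M wt against P5 wt (limma adjusted p = 0.00138). Its relative Btg1 (mm10, chromosome 10, 96617006 to 96622809) was at 23.0, 15.4 and 9.58 in 1.5M KO and at 41.5, 35.1 and 38.2 in 1.5M wt. Values in P5 KO were 49.0, 34.2 and 33.6, and in P5 wt 17.1, 17.4 and 11.7. It was thus lower in 1.5M KO than in 1.5M wt (-1.28 ± 0.27, limma adjusted p = 0.00383) and higher in P5 KO than in P5 wt (1.28 ± 0.27, limma adjusted p = 0.0139), lower in 1.5M KO than in P5 KO (-1.29 ± 0.27, limma adjusted p = 0.00721) and higher in 1.5M wt than in P5 wt (1.28 ± 0.27, limma adjusted p = 0.00495). The Btg1 call at P5 was lost without P5 KO library 1 (adjusted p = 0.084) or P5 wt library 3 (0.0882), and that with age in knockout without 1.5M KO library 3 (0.0797) or P5 KO library 1 (0.0575). After thinning to equal depth all 4 of these Btg1 calls were lost (0.1385 to 0.367), with log2 fold changes of -1.31, 1.15, -1.37 and 1.09 in the same order. In the fits to only the 6 libraries compared, the Btg1 call with age in wild type held (0.0444) and the other 3 were lost (0.077 to 0.2055). The Btg2 call with age in wild type was lost in that fit too (limma adjusted p = 0.103), whereas its call at 1.5M held. Cdkn2c, the Cdk4 and Cdk6 inhibitor p18, was at 0.48, 1.99 and 3.35 in 1.5M KO and at 0 throughout 1.5M wt, at least 2.33-fold higher (limma adjusted p = 0.027). At P5 it was at 0, 0.73 and 0 in KO and at 0 throughout wt. Its call was lost without any single 1.5M wt library (adjusted p of 0.0922 to 0.0987) and without 1.5M KO library 2 (0.0848) or 3 (0.113). It was also lost in the fit to only the 6 libraries compared (limma adjusted p = 0.159). Cdkn2c reached the filter of 3 libraries above 0 only with the 1.5M KO libraries. The filter thus favoured its call as higher there, and the call carries little weight.

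Cdkn1a, the Cdk inhibitor p21, was at 31.2, 29.3 and 19.6 in 1.5M KO and at 38.7, 39.3 and 36.4 in 1.5M wt. P5 KO had 13.6, 12.4 and 12, and P5 wt had 9.95, 2.17 and 8.30. It was higher in 1.5M wt than in P5 wt (2.51 ± 0.34, limma adjusted p = 3.6e-05), while the log2 fold change of 0.995 ± 0.34 for 1.5M KO against P5 KO did not pass (limma adjusted p = 0.131), and no library of a 1.5M group overlapped with a P5 group. Gadd45b, a stress-induced growth arrest gene, was higher in 1.5M wt, at 18.4, 14.3 and 10.7, than in P5 wt, at 6.39, 1.08 and 2.93 (1.95 ± 0.38, limma adjusted p = 0.00215), and also higher in P5 KO, at 11.8, 14.5 and 10.8, than in P5 wt (1.76 ± 0.38, limma adjusted p = 0.0156), a call that was lost without P5 KO library 1 (0.0542) or 2 (0.0709) or P5 wt library 2 (0.0903) or 3 (0.0616) and after thinning (0.159). It was at 34.0, 16.4 and 22.5 in 1.5M KO, overlapping with 1.5M wt. Sesn1, a p53 target, was at 0 throughout 1.5M wt and at 2.13, 3.25 and 2.93 in P5 wt, at least 3.33-fold lower in 1.5M wt (limma adjusted p = 0.0197). It was at 2.40, 2.98 and 0.48 in 1.5M KO and at 0.91, 1.45 and 1.2 in P5 KO. Its call was lost without any single library of 1.5M wt (0.0532 to 0.0561) and without P5 wt library 2 (0.0656) or 3 (0.0583). Tob2, of the same family as Btg1, was higher in 1.5M KO, at 5.75, 6.96 and 3.83, than in P5 KO, at 1.82, 0.73 and 1.2 (1.53 ± 0.38, limma adjusted p = 0.0238), and was called lower in P5 KO than in P5 wt (-1.45 ± 0.38, limma adjusted p = 0.0496), a call that was lost under 21 of 24 alternatives. In wild type Tob2 was at 10.1, 12.2 and 10.7 at 1.5M and at 2.84, 5.42 and 7.81 at P5. The Tob2 call with age in knockout was lost without 1.5M KO library 1 (0.0982) or 2 (0.144), and also without P5 KO library 2 (0.0863) or 3 (0.0526). In the fits to only the 6 libraries compared, the calls with age in wild type of Cdkn1a, Gadd45b and Sesn1 were lost (limma adjusted p = 0.0703, 0.130 and 0.0614). So were the Gadd45b call at P5 (0.296) and the Tob2 call with age in knockout (0.101). The 26 genes of this list had sums of 90.1 to 125 in 1.5M KO, against 163 to 181 in 1.5M wt. At P5 their sums were 85.2 to 119 in KO, against 54.2 to 86.1 in wt. Btg1, Btg2 and Cdkn1a made up most of the sums in 1.5M wt. Without them, a split made after the values were seen, the other 23 genes summed to 47.2 to 62.3 in 1.5M KO, against 32.9 to 45.2 in 1.5M wt, so that the order of both groups turned round. At P5 these 23 genes summed to 34.8 to 41.8 in KO, against 29.3 to 43.5 in wt. The median log2 fold change over the list was 0.09 for 1.5M KO against 1.5M wt, beside 0.09 over all genes tested, and -0.13 for 1.5M wt against P5 wt, beside -0.22. Of the 26 genes, 20 to 22 were above 0 in 1.5M KO libraries, against 12 to 16 in 1.5M wt.

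**Figure D5:**
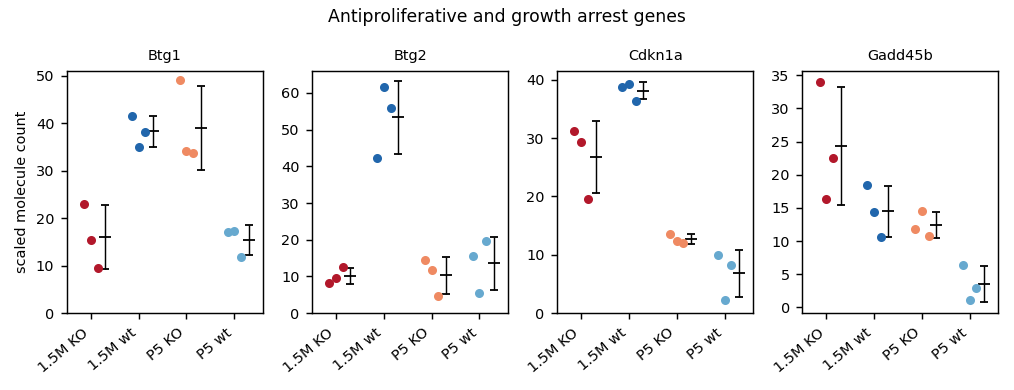
Scaled molecule count (vertical axis) of Btg1, Btg2, Cdkn1a and Gadd45b in each library of the 4 groups (coloured points), with the group mean and SD (black, n = 3). Btg2 stands apart in 1.5M wt, and Btg1 is lower in KO at 1.5M and higher in KO at P5.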

How the data were processed

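The 12 libraries are 3 per group, each from 100 sorted cells per tube. Per the labels' protocols, cells were lysed with spike-in RNA, reverse transcribed from an oligo-dT primer with molecular barcodes and template switching, and amplified by PCR. Per the submitters' processing notes, TopHat2 and mm10 were used. The annotation, the counting, the use of strand and the scaling are not given in the sources used here, so overlapping and antisense genes cannot be told apart. The authors deposited 1 table whose values are a signal: molecule counts scaled to the same total in every library. Within a tolerance of 0.01, 92.6% to 94.9% of the values above 0 are whole multiples of 1 step per library, and no count model was run as the main test for that reason.

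Values were tested with limma 3.58.1 in R 4.3.3 on log2(value + 1), with an empirical Bayes trend, 4 group means and a filter of values above 0 in at least 3 of 12 libraries, in 5 two-sided comparisons adjusted by the Benjamini-Hochberg method. The code was tested on simulated data. Counts of molecules are approximate, and floors of 3 molecules cover counting error only. A fold given as at least sets the observed mean of the higher group over the floor of the other group. The counting error of that mean is left out, so that such a fold is no strict bound. The limma fits share group means, so that comparisons with a group in common are not independent. Of the 45 genes, those past an adjusted p of 0.05 or with a group mean of 10 or more are given in all 12 libraries. Of the other lists, genes past the threshold are named, up to 8 per list by size of change, and H2afz, the next of the mitotic list, beside them. Other genes named, and the medians with floors, were chosen after their values were seen. The members and lists were chosen with earlier results of these data known. The alternatives were other pseudocounts, filters and scalings, removal of keratinocyte, erythroid and neutrophil markers, thinning to equal depth, voom, fits to the 6 libraries compared, each library left out, P5 KO library 3 alone and a replicate block. No 2 libraries of a group agreed within sampling noise, with ratios of chi-square to degrees of freedom of 1.17 to 2.18.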

Additional observations from a re-analysis of the deposited data

Results flagged for a closer look

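The knockout effect differed between the ages for 2 genes of the lists around the 45, by limma's test of the difference itself. Orc6, a subunit of the origin recognition complex, was at 1.44, 0.50 and 0.48 scaled counts in 1.5M KO, at 0 throughout 1.5M wt and throughout P5 KO, and at 2.13, 1.08 and 0.98 in P5 wt. The effect at 1.5M minus that at P5 was 2.04 ± 0.52 on the log2 scale (limma adjusted p = 0.0411), while the effects of 0.81 at 1.5M (adjusted p = 0.291) and -1.23 at P5 (adjusted p = 0.104) did not pass in limma. The difference passed under 6 of 21 alternatives, and was lost without any single library of 1.5M KO, 1.5M wt or P5 KO (adjusted p of 0.0641 to 0.0975) and without P5 wt library 1 (0.0535).

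The effect on Btg1 at 1.5M minus that at P5 was -2.57 ± 0.38 (limma adjusted p = 0.000285), lower in KO in the first and higher in KO in the second, with no overlap between genotypes at either age. It passed under 22 of 23 alternatives, and was lost after thinning to equal depth (0.0823).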

How the results depend on the processing

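No result changed direction past a threshold under the alternatives run. For 1.5M KO against 1.5M wt, where 2 of the 45 genes were called, the count was 5 in the fit to the 6 libraries compared, 4 by voom, 1 without a filter, 1 at either other pseudocount and 0 after thinning. For 1.5M KO against P5 KO, with 2 called, it was 7 by voom, 4 at a pseudocount of 10, 1 after thinning and 0 in the fit to 6 libraries and with P5 KO library 3 as the sole library. For 1.5M wt against P5 wt, with 2 called, it was 10 by voom, 5 with the stricter filter and 0 in the fit to 6 libraries and after thinning. The difference had 2 by voom and 1 with the stricter filter. The median log2 fold change at a pseudocount of 0.1 was 1.57 for 1.5M KO against 1.5M wt, beside 0.33 over all genes tested. It was -1.96 for 1.5M wt against P5 wt, beside -0.39, and 1.49 for the difference, beside 0.43. At a pseudocount of 10 it was 0.07 for 1.5M KO against 1.5M wt, beside 0.01, and -0.13 for 1.5M wt against P5 wt, beside -0.04. By voom it was -1.32 for 1.5M wt against P5 wt, beside -0.36, and -0.87 for 1.5M KO against P5 KO, beside -0.42. With P5 KO library 3 as the sole library it was 0.32 for 1.5M KO against P5 KO, beside 0.001, and -0.73 for P5 KO against P5 wt, beside -0.03. The cause was not tested.

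Leaving out 1 library gave 0 to 2 called genes for 1.5M KO against 1.5M wt, 1 to 3 for 1.5M KO against P5 KO, 0 to 4 for 1.5M wt against P5 wt, 0 to 2 at P5 and 0 to 1 for the difference, with medians of 0.38 to 0.52, -0.65 to 0, -0.86 to -0.66, -0.23 to 0.21 and 0.35 to 0.75.

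With the replicate number as a block, 1 of the 45 genes was called for 1.5M KO against 1.5M wt, 3 for each comparison with age and 0 for the others. Same-numbered libraries correlated at -0.020 to 0.021 in their deviations, and libraries of unlike number at -0.033 to 0.044. Much of these deviations is sampling noise at this depth, so that the correlations cannot show whether the numbers pair the samples.

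A few molecules per gene limit these values: a count of 0 allows up to 3 molecules over a group, and the 1.5M KO libraries were the deepest.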
